A study of Mus musculus with 6 samples.

Results

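The 9 genes described here encode the core of the class I phosphoinositide 3-kinase (PI3K) and AKT relay, and were taken by their symbols from a table of read counts for 46095 genes. They are the catalytic subunits Pik3ca, Pik3cb and Pik3cd, the regulatory subunits Pik3r1, Pik3r2 and Pik3r3, the kinases Akt1 and Akt2, and Pdpk1, which encodes the kinase PDK1. RNA was sequenced from primary tubular epithelial cells (PTECs) isolated from the kidneys of 6 mice on a C57 background at 10 weeks of age. In both groups the Ksp-Cre transgene, driven by the promoter of the tubular cadherin gene Cdh16, targeted floxed VHL alleles. The VHL-KO group (replicates 1, 2 and 4) carried no other deletion, whereas in the VHL-KO;SETD2-KO group (replicates 2, 3 and 4) both floxed Setd2 alleles were targeted by the same Cre. Control mice with intact VHL were not part of the comparison, so every value below is a contrast between 3 mice targeted for VHL and 3 mice targeted for both genes. VHL is the substrate receptor of a ubiquitin ligase that marks HIF-alpha proteins for destruction, and SETD2 places the trimethyl mark on lysine 36 of histone H3.

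PI3K is a dimer of a regulatory and a catalytic subunit that is recruited to activated receptor tyrosine kinases, where it phosphorylates the membrane lipid PIP2 to PIP3. PIP3 draws AKT and PDK1 to the membrane, PDK1 phosphorylates the activation loop of AKT, and mTOR complex 2 completes its activation. Active AKT then inhibits FoxO factors, GSK3 and the TSC complex, and in the kidney tubule the pathway is known for insulin and growth factor responses, cell survival and sodium handling. The relay is switched mainly by phosphorylation, which RNA counts do not measure.

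The 6 libraries held 11168552 to 17883466 counts each, and 14611 genes passed the filter on low counts, among them all 9 members. Values are given as CPM, counts scaled to the library total and adjusted by trimmed means (TMM). The whole-gene count of the targeted gene did not follow its label: Setd2 stood at 71.3, 73.8 and 12.3 CPM in VHL-KO replicates 1, 2 and 4 and at 79.5, 57.3 and 89.5 CPM in replicates 2, 3 and 4 of the group labelled VHL-KO;SETD2-KO (log2 fold change 0.52, adjusted p = 0.787, edgeR's quasi-likelihood test). Without VHL-KO replicate 4 the log2 fold change of Setd2 was 0.052 (adjusted p = 0.913, same test). The study itself reports lower SETD2 and H3K36me3 in the tubules of mice with both deletions, by RT-qPCR, western blot and tissue staining. The count covers the whole gene, and the exons that Cre removes are not given in the sources used here. Vhl, targeted in both groups and counted in the same way, lay between 11.8 and 25.8 CPM. VHL-KO replicate 4 stood apart from the other 5 libraries: transcripts of mitochondrial genes made up 11.3% of its counts against 25.9% to 36.4%, and transcript GC content and length accounted for 61.5% of the variance of its deviations from the mean of all libraries against 4.13% to 27.6%. The library labelled VHL-KO;SETD2-KO 3 alone held Xist, with 11704 counts against at most 4. Markers of the proximal tubule were present throughout, with 15261 to 25378 CPM summed over 10 genes in VHL-KO and 6529 to 9478 in VHL-KO;SETD2-KO. The group labels are kept as given, and the results of the members are also given without VHL-KO replicate 4.

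The regulatory paralogues encode similar proteins with codons of different base composition, and this is shown first because the values of VHL-KO replicate 4 divided along it. A stretch of 30 codons that the regulatory subunits share, in which 29 codons encode the same residue in all of them, reads as follows in GRCm38, with the last base of each codon in capitals.
Pik3r1: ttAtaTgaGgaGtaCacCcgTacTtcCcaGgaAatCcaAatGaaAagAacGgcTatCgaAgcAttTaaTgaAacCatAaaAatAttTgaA
Pik3r2: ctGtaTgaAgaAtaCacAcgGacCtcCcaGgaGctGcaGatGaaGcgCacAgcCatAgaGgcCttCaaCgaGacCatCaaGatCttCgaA
Pik3r3: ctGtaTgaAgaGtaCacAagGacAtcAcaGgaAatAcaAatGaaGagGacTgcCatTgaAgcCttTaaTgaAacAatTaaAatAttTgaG
Each stretch covers parts of 2 coding exons, and with the intron between them they span chr13:101687584-101688662 on the minus strand for Pik3r1, chr8:70769988-70770406 on the minus strand for Pik3r2 and chr4:116272835-116286115 on the plus strand for Pik3r3. G or C filled 23 of the 30 last positions in Pik3r2 but 11 in Pik3r1 and 11 in Pik3r3. Over the whole coding sequence the GC content of last positions was 72.0% in Pik3r2, 52.2% in Pik3r1 and 52.5% in Pik3r3, although 62.2% of the aligned residues of Pik3r1 and Pik3r2 were identical.

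Akt1 and Akt2 were both GC-rich. The 30 codons below encode identical residues in the 2 genes and cover the activation loop, which carries the threonine that PDK1 phosphorylates.
Akt1: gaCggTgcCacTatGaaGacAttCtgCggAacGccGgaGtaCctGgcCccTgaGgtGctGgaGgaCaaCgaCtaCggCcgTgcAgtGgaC
Akt2: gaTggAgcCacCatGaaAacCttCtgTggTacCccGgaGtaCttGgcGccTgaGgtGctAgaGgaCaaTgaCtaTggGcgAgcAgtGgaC
These stretches also cover parts of 2 exons and span chr12:112656956-112657121 on the minus strand and chr7:27636114-27636299 on the plus strand. G or C filled 23 of the last positions in Akt1 and 19 in Akt2. Across the coding sequences these positions were 77.9% and 69.4% GC, and 82.0% of aligned residues were identical between Akt1 and Akt2. Of the catalytic subunits, Pik3cd was GC-rich (78.2%) and Pik3ca (50.6%) and Pik3cb (51.8%) were not, and neither was Pdpk1 (49.7%).

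VHL-KO replicate 4 split the 9 members along this composition. It held the lowest value of the 6 libraries for Pik3ca, Pik3cb, Pik3r1, Pik3r3 and Pdpk1, whose longest transcript models contained 41.2% to 45.8% GC, at 4.68-fold (Pik3r1) to 9.72-fold (Pik3r3) below the mean of the other 5. It held the highest value for Akt2, Akt1 and Pik3r2, whose models contained 55.2%, 59.7% and 61.4% GC, at 4.00-fold, 2.71-fold and 4.12-fold above that mean. Pik3cd, with 57.04% GC and few reads, lay inside the range of the others. Over the 13811 tested genes with a GC content, the bin medians followed the same gradient, although single genes went against it. The median difference between this library and the mean of the other 5 was -2.51 on the log2 scale for the 1426 genes at or below 42% GC and 1.51 for the 1939 genes above 57% GC. Of the 82 genes in the relay and its surrounding pathway, all 27 below 48% GC were lower in this library than in the mean of the others, and 22 of the 27 at or above 54% GC were higher. The cause of this gradient was not tested.

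**Figure D1:**
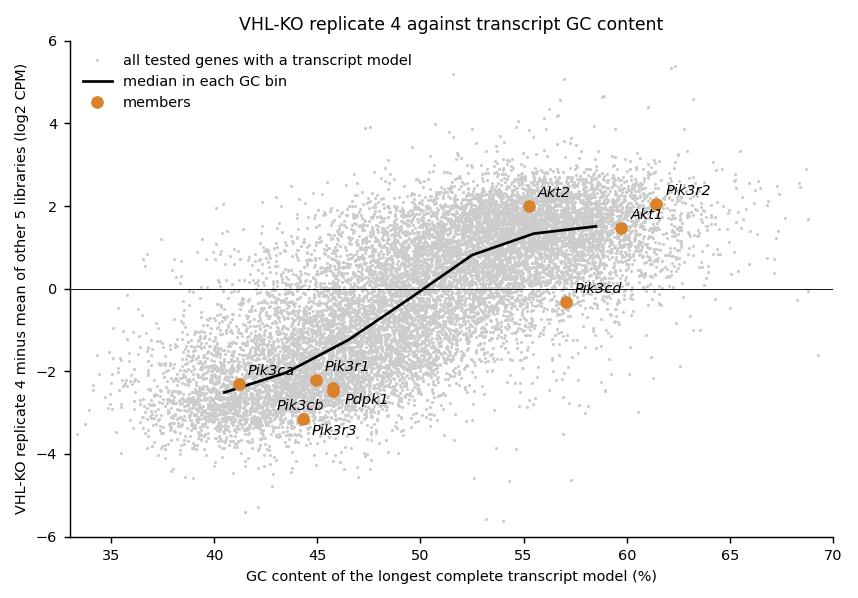
Log2 CPM of VHL-KO replicate 4 minus the mean of the other 5 libraries (vertical axis) against the GC content of the longest complete transcript model in percent (horizontal axis). Each grey point is a tested gene, the black line joins the medians of 7 GC bins and the orange points are the 9 members, of which 5 with at most 45.8% GC lie below 0 and 3 with at least 55.2% GC lie above it.

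Among the catalytic subunits, Pik3ca and Pik3cb spanned 66.6 to 87.7 and 22.3 to 35.7 CPM in 5 libraries, and Pik3cd was detected at low counts. Gene positions are from GENCODE vM21 on GRCm38. Pik3ca (chr3:32397671-32468486, plus strand) encodes the alpha subunit, the main relay of insulin and growth factor receptors. It measured 87.7, 83.3 and 15.6 CPM in VHL-KO replicates 1, 2 and 4 and 76.8, 66.6 and 77.5 CPM in VHL-KO;SETD2-KO replicates 2, 3 and 4. The groups overlapped only through VHL-KO replicate 4, since the other 2 VHL-KO libraries lay above all 3 VHL-KO;SETD2-KO libraries. The log2 fold change of VHL-KO;SETD2-KO over VHL-KO was 0.24 ± 0.61 (standard error, adjusted p = 0.894) with 6 libraries and -0.22 ± 0.13 (adjusted p = 0.397) without VHL-KO replicate 4. Pik3cb (chr9:99036654-99140621, minus strand) encodes the beta subunit, which also answers to G protein-coupled receptors. It measured 32.6, 35.7 and 5.41 CPM in VHL-KO and 28.6, 22.3 and 28.6 CPM in VHL-KO;SETD2-KO, the same arrangement as Pik3ca. Its log2 fold change was 0.11 ± 0.64 (adjusted p = 0.959), and -0.37 ± 0.16 (adjusted p = 0.269) without VHL-KO replicate 4, so for both subunits the direction turned with that 1 library. Pik3cd (chr4:149649168-149702571, minus strand) encodes the delta subunit, known chiefly from leukocytes. It gave 19, 31 and 18 reads in VHL-KO and 66, 25 and 44 reads in VHL-KO;SETD2-KO, or 1.15 to 3.50 CPM, with overlapping groups and a log2 fold change of 0.44 ± 0.58 (adjusted p = 0.802), or 0.37 ± 0.58 (adjusted p = 0.757) without VHL-KO replicate 4.

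Of all members, the regulatory subunits Pik3r2 and Pik3r3 had the largest log2 fold changes with 6 libraries, and these pointed in opposite directions. Pik3r1 (chr13:101680563-101768217, minus strand) encodes the most common regulatory subunit, which stabilises the catalytic subunits and holds them inactive until a receptor is engaged. It measured 54.4, 59.5 and 13.7 CPM in VHL-KO and 81.9, 61.2 and 64.4 CPM in VHL-KO;SETD2-KO. Every VHL-KO;SETD2-KO library was above every VHL-KO library, but the nearest values, 59.5 and 61.2 CPM, were close. The log2 fold change was 0.70 ± 0.56 (adjusted p = 0.694), and 0.28 ± 0.17 (adjusted p = 0.402) without VHL-KO replicate 4.

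Pik3r2, the GC-rich regulatory paralogue (chr8:70768176-70776713, minus strand), measured 27.6, 27.3 and 96.1 CPM in VHL-KO and 19.996, 23.2 and 18.5 CPM in VHL-KO;SETD2-KO. In TMM-scaled CPM the 3 VHL-KO;SETD2-KO libraries were the lowest of the 6, but without normalization factors 0 members were lower with no overlap. The share over all genes was not counted without those factors. The scaled order did not rest on VHL-KO replicate 4. The size of the contrast did: the log2 fold change was -1.29 ± 0.57 (adjusted p = 0.625, edgeR) with 6 libraries, -0.42 ± 0.15 (adjusted p = 0.209) without that library, and -0.76 ± 0.18 (adjusted p = 0.198) with 6 libraries and an offset for GC content and length. The linear fold was therefore 2.44-fold, 1.34-fold and 1.69-fold lower in the 3 fits. An annotated gene on the opposite strand, 6330537M06Rik, overlaps exons of Pik3r2, and whether the counting used strand is not given in the sources used here.

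Pik3r3 (chr4:116221618-116303056, plus strand) encodes a shorter regulatory subunit. It measured 23.4, 29.5 and 3.83 CPM in VHL-KO and 60.5, 27.5 and 45.1 CPM in VHL-KO;SETD2-KO. Replicates 2 and 4 of VHL-KO;SETD2-KO were above all VHL-KO libraries, whereas replicate 3 fell inside their range, so the groups overlapped. The log2 fold change was 1.23 ± 0.70 (adjusted p = 0.625), 0.75 ± 0.34 (adjusted p = 0.281) without VHL-KO replicate 4, and 0.94 ± 0.33 (adjusted p = 0.254) with the GC and length offset. Its exons also belong in part to the annotated transcript Gm49337 on the same strand, which has no row in the count table.

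Akt2 was nearly level across 5 libraries and Akt1 less so, and VHL-KO replicate 4 lay far above them for both. Akt1 (chr12:112653821-112674884, minus strand), a broadly expressed isoform, measured 54.3, 64.7 and 188.8 CPM in VHL-KO and 90.3, 70.6 and 68.3 CPM in VHL-KO;SETD2-KO. Without VHL-KO replicate 4 all VHL-KO;SETD2-KO libraries were above both VHL-KO libraries, and the log2 fold change turned from -0.42 ± 0.55 (adjusted p = 0.796) to 0.36 ± 0.18 (adjusted p = 0.317). Akt2 (chr7:27591552-27640826, plus strand), the isoform tied to insulin-driven glucose uptake, measured 58.1, 54.4 and 224.2 CPM in VHL-KO and 53.7, 58.9 and 55.0 CPM in VHL-KO;SETD2-KO. In 5 libraries Akt2 thus spanned only 53.7 to 58.9 CPM, and its log2 fold change moved from -1.01 ± 0.60 (adjusted p = 0.627) to -0.015 ± 0.12 (adjusted p = 0.957) without VHL-KO replicate 4. Pdpk1 (chr17:24073680-24150924, minus strand) was likewise level in 5 libraries, with VHL-KO replicate 4 far below them. It measured 57.1, 54.7 and 9.80 CPM in VHL-KO and 52.9, 53.6 and 59.4 CPM in VHL-KO;SETD2-KO, and its log2 fold change moved from 0.45 ± 0.62 (adjusted p = 0.807) to -0.019 ± 0.12 (adjusted p = 0.946).

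**Figure D2:**
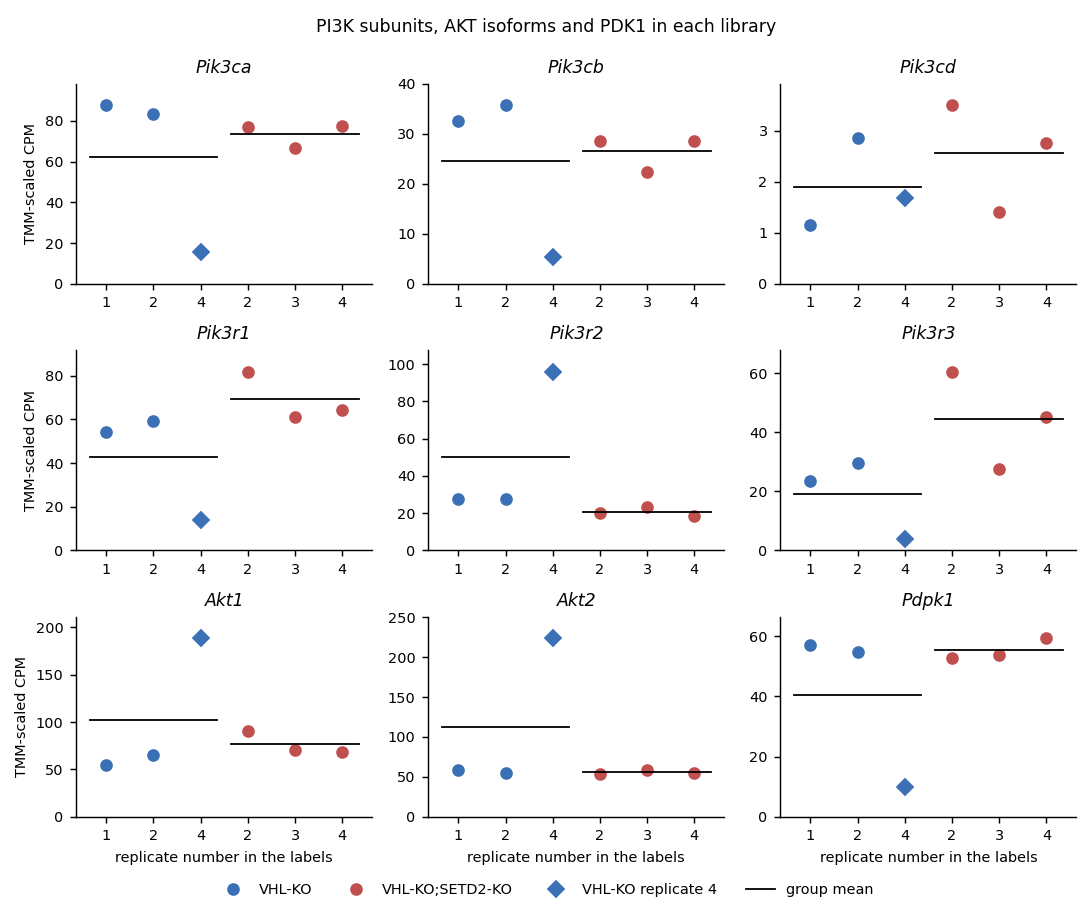
TMM-scaled CPM of each member (vertical axes, from 0) in the 3 VHL-KO libraries (blue) and the 3 VHL-KO;SETD2-KO libraries (red), by replicate number (horizontal axes), with lines at the group means. VHL-KO replicate 4 (diamond) is the lowest library for 5 members and the highest for 3.

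None of the 9 members passed an adjusted p of 0.05 in edgeR with 6 libraries, where 0.00684% of all genes tested did (1 gene). None reached an unadjusted p under 0.05 with a fold change of at least 1.5 in either direction, against 2.66% of tested genes higher and 4.68% lower in VHL-KO;SETD2-KO. Limma-voom without weights called none either. DESeq2 gave no adjusted p for any member after its own filter, but there Pik3r2 met the unadjusted rule (2.52-fold lower, unadjusted p of 0.027), as did 7.75% of genes in that direction. The members' median log2 fold change was 0.24 beside 0.01 for all genes tested. Without VHL-KO replicate 4 again 0 members were called by edgeR, against 8.29% of genes higher and 7.15% lower, and the median was -0.015 beside 0.04 for all genes. Limma-voom with quality weights gave VHL-KO replicate 4 a weight of 0.0376 against 0.458 to 3.62 for the others, the 0.458 being that of VHL-KO;SETD2-KO replicate 3. There Pik3r2 was lower by 0.51 ± 0.15 (log2, adjusted p = 0.038) and Pik3r3 higher by 0.91 ± 0.23 (log2, adjusted p = 0.023), in a fit that called 20.4% of all genes tested. With the GC and length offset the same pair, Pik3r3 higher and Pik3r2 lower, met the unadjusted rule, as did 6.78% of genes higher and 8.24% lower. DESeq2 without VHL-KO replicate 4 called Pik3r3 alone among the members, where 9.5% of genes were called higher.

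Pik3r1 was the single member whose groups did not overlap with VHL-KO;SETD2-KO higher, as for 9.62% of all genes tested, and Pik3r2 the single one with it lower, as for 11.0%. Without VHL-KO replicate 4, Pik3r1 and Akt1 did not overlap and were higher (20.4% of genes), and Pik3ca, Pik3cb and Pik3r2 did not overlap and were lower (21.5% of genes).

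**Figure D3:**
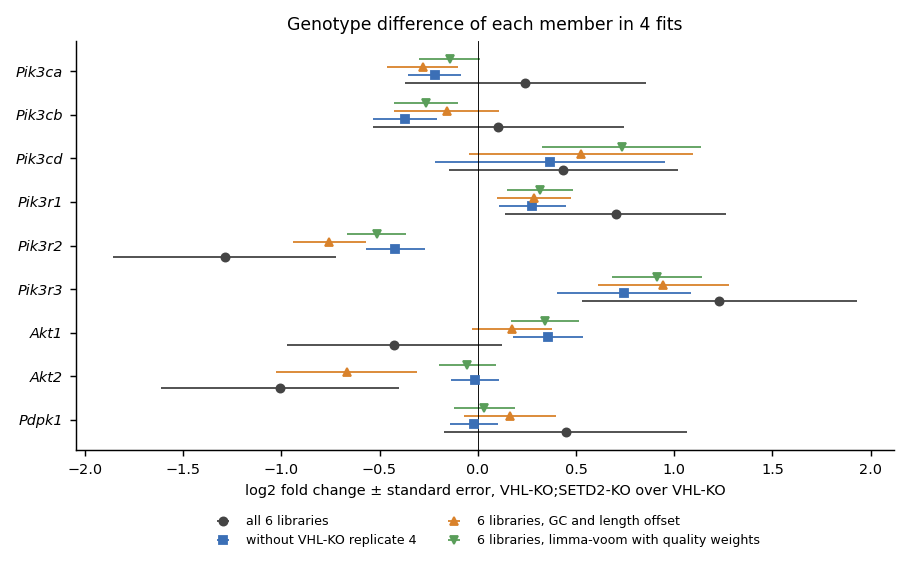
Log2 fold change of VHL-KO;SETD2-KO over VHL-KO with its standard error (horizontal axis) for each member (vertical axis) in 4 fits: edgeR with all 6 libraries (grey), edgeR without VHL-KO replicate 4 (blue), edgeR with a GC and length offset (orange) and limma-voom with quality weights (green). Pik3r2 is below 0 and Pik3r3 above 0 in all 4 fits, while Pik3ca, Pik3cb and Akt1 lie on the other side of 0 with all 6 libraries than in the other fits.

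Per kilobase of transcript, Akt1 and Pdpk1 were the most abundant members and Pik3cd the least. Medians over the 5 libraries other than VHL-KO replicate 4 were 33.9 CPM per kb for Akt1, 29.8 for Pdpk1, 18.8 for Akt2, 12.2 for Pik3r1, 11.6 for Pik3ca, 8.34 for Pik3r3, 7.34 for Pik3r2, 4.41 for Pik3cb and 0.57 for Pik3cd. The ranges of Akt1 and Pdpk1 overlapped, as did those of each neighbouring pair from Pik3r1 down to Pik3r2, whereas Akt2, Pik3cb and Pik3cd were separated from their neighbours. The place of Pdpk1 depended on the transcript length assumed, 1832 bases at the median of its models but 7161 for the longest one, with which it ranked 5th. With coding lengths Akt2 ranked above it. In VHL-KO replicate 4 the order was different, and Pik3r2 ranked 3rd.

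Ratios within a library need no scaling between libraries. Alpha to beta was the steadiest pair: Pik3cb stood at 0.345 to 0.443 of Pik3ca per kb in the 5 libraries and at 0.361 in VHL-KO replicate 4, and both are AT-rich. Pik3r2 stood at 0.805 and 0.729 of Pik3r1 in VHL-KO replicates 1 and 2, at 11.1 in VHL-KO replicate 4, and at 0.387, 0.602 and 0.457 in VHL-KO;SETD2-KO replicates 2, 3 and 4. This ratio was lower in every VHL-KO;SETD2-KO library than in any VHL-KO library, by 1.98 on the log2 scale between group means and by 0.69 without VHL-KO replicate 4. Which of the 2 genes was higher depended on the transcript length used: the mean log2 ratio over 6 libraries was -0.089 with median lengths, 0.41 with the longest models and -0.75 with coding lengths. Pik3r3 stood at 0.608, 0.704 and 0.398 of Pik3r1 in VHL-KO and at 1.05, 0.638 and 0.991 in VHL-KO;SETD2-KO, with overlapping groups. Akt2 stood at 0.739, 0.580 and 0.819 of Akt1 in VHL-KO and at 0.410, 0.575 and 0.555 in VHL-KO;SETD2-KO, where the nearest values were 0.580 and 0.575.

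**Figure D4:**
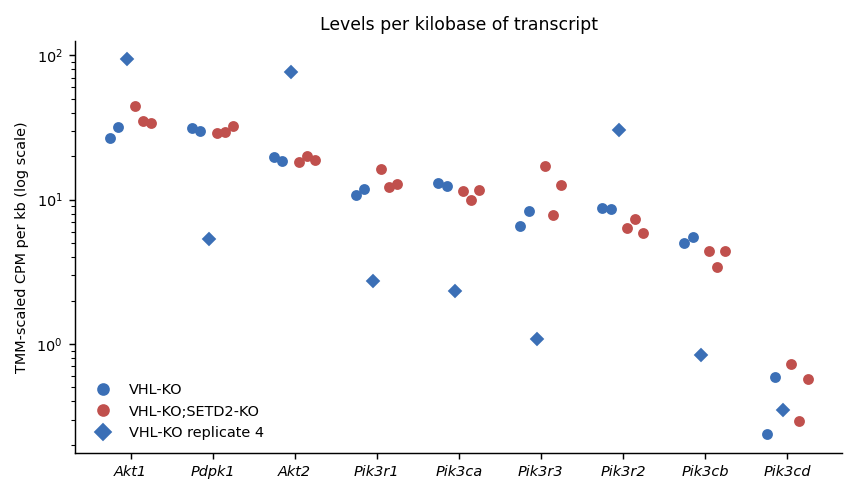
TMM-scaled CPM per kilobase of the median transcript length (vertical axis, log scale) for the members in order of their median over 5 libraries (horizontal axis). Points are libraries of VHL-KO (blue) and VHL-KO;SETD2-KO (red), and the diamond is VHL-KO replicate 4, which lies below the other libraries for 5 members and above them for 3.

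The wider pathway was described through 73 genes in 6 lists, all of which passed the filter. None was called at an adjusted p of 0.05 by edgeR. At an unadjusted p under 0.05 with at least a 1.5-fold change, 3 were higher in VHL-KO;SETD2-KO (Fgfr2, Tbc1d4 and Sesn1) and 2 were lower (Mtor and Rps6kb2). By the same rule 2.66% of all genes tested were higher and 4.68% lower. The median log2 fold change over the 73 genes was 0.16 beside 0.01 for all genes tested. The 3 became 0 without VHL-KO;SETD2-KO replicate 2 and 1 without VHL-KO;SETD2-KO replicate 4, and the 2 became 1 without VHL-KO;SETD2-KO replicate 2. Calls fell over all genes tested as well. Those higher went from 388 to 179 and 187 in these fits. Those lower went from 684 to 206 without VHL-KO;SETD2-KO replicate 2. Without VHL-KO replicate 4, 7 were higher and 8 lower, again with 0 adjusted calls by edgeR. All genes tested were called at 8.29% higher and 7.15% lower in that fit. DESeq2 without that library made 11 adjusted calls, against 9.57% of the genes to which it gave an adjusted p, and limma-voom with quality weights made 18, against 20.4% of genes tested.

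Mtor, the kinase of both mTOR complexes, was 1 of the 2 genes called lower. It measured 112, 118 and 109 CPM in VHL-KO and 44.1, 38.8 and 67.2 CPM in VHL-KO;SETD2-KO. The groups were well apart, and VHL-KO replicate 4 lay with its own group. The log2 fold change was -1.17 ± 0.40 (adjusted p = 0.625, edgeR) and -1.20 ± 0.25 (adjusted p = 0.098) without that library. Of the 12 genes of the mTOR and TSC list, 9 had a negative log2 fold change with 6 libraries and the list's median was -0.40. VHL-KO replicate 4 was the highest library for 6 of them. Without it 8 were negative and the median was -0.23. The 3 other genes there with the highest mean log2 CPM were Deptor, Akt1s1 and Tsc2, with log2 fold changes of 0.39, -1.23 and -0.43 that did not pass the test.

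Of the 9 other PI3K and AKT family genes, edgeR with 6 libraries called 0 without an offset and 1 higher and 1 lower with the GC and length offset. With the offset 6.78% of genes tested were called higher and 8.24% lower. The class II gene Pik3c2g measured 48.2, 40.4 and 6.44 CPM in VHL-KO and 16.7, 25.3 and 16.7 CPM in VHL-KO;SETD2-KO, and did not meet the unadjusted rule in edgeR with 6 libraries. It met it, lower, without VHL-KO replicate 4 (log2 fold change -1.19 ± 0.23, adjusted p = 0.088) and with the offset (-0.89), and passed with quality weights (-1.34, adjusted p = 0.0052). Without VHL-KO replicate 4 the rule called 1 of the 9 genes higher and 1 lower, against 8.29% of genes higher and 7.15% lower. The fit with quality weights called 20.4% of genes tested. The class II gene Pik3c2a and Pik3r4, which encodes the regulatory partner of the class III kinase, had log2 fold changes of 0.18 and -0.37 with 6 libraries that did not pass the test.

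Upstream of PI3K, 1 of 16 receptors and adaptors was called by edgeR with 6 libraries and no offset. It was higher, as were 2.66% of genes tested. Fgfr2, a fibroblast growth factor receptor, measured 8.59, 10.5 and 5.60 CPM in VHL-KO and 24.1, 19.9 and 15.7 CPM in VHL-KO;SETD2-KO, a log2 fold change of 1.27 ± 0.42 (adjusted p = 0.625), and 1.06 ± 0.24 (adjusted p = 0.108) without VHL-KO replicate 4. Exons of Ctbp2 overlap it on the same strand. Met, the receptor of hepatocyte growth factor, measured 233, 180 and 25.2 CPM in VHL-KO and 86.0, 75.3 and 97.7 CPM in VHL-KO;SETD2-KO. It was uncalled by edgeR with 6 libraries and no offset (log2 fold change -0.76, adjusted p = 0.732) and met the unadjusted rule, lower, without VHL-KO replicate 4 (-1.26 ± 0.19, adjusted p = 0.078). Egfr and Erbb3 shared that arrangement, with log2 fold changes of -0.92 and -1.16 without VHL-KO replicate 4. By the unadjusted rule that fit called 2 of the 16 genes higher and 3 lower. Over all genes tested it called 8.29% higher and 7.15% lower. Across the list 8 log2 fold changes were positive and 8 negative in that fit. The insulin receptor gene Insr and Igf1r had log2 fold changes of 0.64 and -0.19, neither past the test.

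Of the 10 phosphatases and inhibitors, edgeR with 6 libraries called 0 without an offset. It called 2 higher with the GC and length offset, as it did 6.78% of genes tested. Inppl1 and Inpp5k, which encode phosphoinositide 5-phosphatases, had log2 fold changes of -0.18 and 0.16. Pik3ip1, an inhibitor of the catalytic subunits, was not called by edgeR with 6 libraries. It met the unadjusted rule, higher, without VHL-KO replicate 4 (1.06 ± 0.22, adjusted p = 0.102) and with the offset (0.71), and passed with quality weights (1.09, adjusted p = 0.0080). Without VHL-KO replicate 4 the rule called 8.29% of genes tested higher, and the fit with quality weights called 20.4%.

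Downstream, 2 of 17 substrates of AKT or PDK1 and 1 of 9 FoxO target transcripts were called. Over all genes tested, 2.66% were called higher and 4.68% lower. Tbc1d4, the AKT substrate that governs glucose transporter traffic, measured 17.0, 18.7 and 5.13 CPM in VHL-KO and 44.9, 24.1 and 51.9 CPM in VHL-KO;SETD2-KO (log2 fold change 1.56 ± 0.57, adjusted p = 0.625). Rps6kb2, an S6 kinase gene, gave only 23, 8 and 40 reads in VHL-KO and 9, 5 and 6 reads in VHL-KO;SETD2-KO (log2 fold change -2.34 ± 0.73, adjusted p = 0.625), and it overlaps Coro1b and Ptprcap on the opposite strand. Sesn1, a stress-induced FoxO target, measured 10.4, 14.3 and 5.60 CPM in VHL-KO and 21.5, 23.8 and 23.1 CPM in VHL-KO;SETD2-KO (log2 fold change 1.17 ± 0.44, adjusted p = 0.625). In scaled CPM the groups did not overlap for these 3 genes, as for 9.62% of all genes tested higher and 11.0% lower. For Rps6kb2 the raw reads did overlap (8 against 9). Without VHL-KO replicate 4 the log2 fold changes were 1.17 for Tbc1d4, -1.50 for Rps6kb2 and 0.89 for Sesn1. Of the substrates with the highest mean log2 CPM, Sgk1, Tbc1d1 and Sgk2 had log2 fold changes of 0.90, 0.15 and -0.93, and of the FoxO targets Cited2, Klf15 and Pdk4 had -0.03, -0.91 and 0.31, none past the test. Over the 9 FoxO targets 6 log2 fold changes were positive with 6 libraries and 3 without VHL-KO replicate 4.

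Endothelial and podocyte markers were highest in some of the libraries that were high for Pik3r3 and Pik3r1. Stromal and leukocyte sums, given below, were instead highest in VHL-KO replicate 4, the lowest library for both genes. Single leukocyte markers differed there, with Csf1r highest (79.7 CPM) and Ptprc lowest (3.27 CPM) of the 6 libraries. Summed CPM of 7 endothelial markers were 1971, 2453 and 1510 in VHL-KO and 5629, 1896 and 4832 in VHL-KO;SETD2-KO, and those of 6 podocyte markers were 1487, 2004 and 2124 against 5005, 2038 and 4453. Replicates 2 and 4 of VHL-KO;SETD2-KO, with the highest sums of both lists, also held the highest Pik3r3 and Pik3r1 values, and replicate 3, whose sums lay within the VHL-KO range, was close to VHL-KO for Pik3r3 but, at 61.2 CPM, above every VHL-KO library for Pik3r1. None of the markers in either list was at 0 in all libraries, 4 of the 6 podocyte markers were called higher at the unadjusted rule, and 0 of the 7 endothelial markers were, against 2.66% of all genes tested. Their part in the contrasts of Pik3r3 and Pik3r1 was not tested. In bulk RNA, fewer cells of a type and less RNA per cell cannot be told apart.

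Summed leukocyte markers (13 genes) ranged from 129 to 414 CPM in VHL-KO and from 89.0 to 297 CPM in VHL-KO;SETD2-KO. Pik3cd was lowest in VHL-KO replicate 1 and VHL-KO;SETD2-KO replicate 3, the 2 libraries with the lowest leukocyte sums of 129 and 89.0 CPM. The other libraries did not keep this order: VHL-KO replicate 4 had the highest sum, 414 CPM, with 1.68 CPM of Pik3cd, and VHL-KO;SETD2-KO replicate 2 had the highest Pik3cd, 3.50 CPM, with a sum of 258 CPM. Not every marker followed the sum of VHL-KO replicate 4, where Ptprc was at its lowest (3.27 CPM). Of the other lists, the thick limb and distal tubule sum ranged from 1256 to 4816 CPM in VHL-KO and 1594 to 4361 in VHL-KO;SETD2-KO, the collecting duct sum from 55.3 to 587 and 97.9 to 339, and the stromal sum from 41.3 to 443 and 65.1 to 143. VHL-KO replicate 4 held the highest sum in all 3 of these lists, but not the highest value of every marker. It was highest for Umod (2950 CPM) and Slc12a3 (1673 CPM). It was lowest for Slc12a1 (79.1 CPM), Kcnj1 (19.8 CPM), Calb1 (42.4 CPM) and the collecting duct marker Atp6v1g3 (2.71 CPM). Whether these sums followed the GC gradient of that library was not tested. Cdh16, whose promoter drives the Cre, measured 530, 516 and 2252 CPM in VHL-KO and 331, 683 and 358 CPM in VHL-KO;SETD2-KO (log2 fold change -1.27, adjusted p = 0.625). Without VHL-KO replicate 4 its log2 fold change was -0.20 (adjusted p = 0.785, edgeR). Of the 10 proximal tubule markers, 4 were called lower with 6 libraries (4.68% of genes tested) and 7 without VHL-KO replicate 4 (7.15%).

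**Figure D5:**
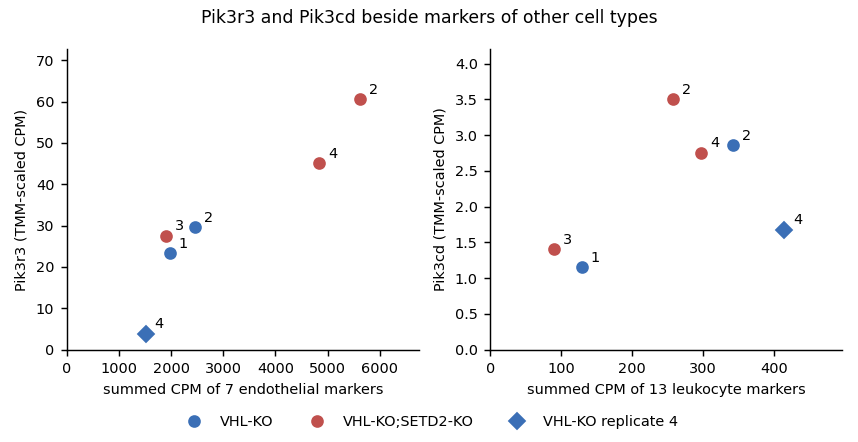
TMM-scaled CPM of Pik3r3 and Pik3cd (vertical axes) against the summed CPM of endothelial or leukocyte markers (horizontal axes) in the 6 libraries, numbered by replicate (blue, VHL-KO; red, VHL-KO;SETD2-KO; diamond, VHL-KO replicate 4). VHL-KO;SETD2-KO replicates 2 and 4 lie at the upper right for Pik3r3, and replicate 3 lies beside VHL-KO replicates 1 and 2.

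Genes were also ranked by how close their profiles over the 6 libraries, VHL-KO replicate 4 included, came to those of Pik3ca, Pik3r1 and Akt1. Among 9500 candidates, the smallest root mean square differences from Pik3ca in centred log2 CPM were those of Nckap1 (0.038), Usp47 (0.043) and Eif3e (0.045), with 40.3% to 45.9% GC. Those nearest to Pik3r1 were Dnajc10, Gm6563 and Crem (0.069 to 0.081), with 43.2% to 44.9% GC. Akt1 lay nearest to Prmt2, Telo2 and Atp13a2 (0.048 to 0.063), with 55.8% to 62.4% GC. The ranking used VHL-KO replicate 4, so likeness to the member in that library was fixed by the selection. The GC content shared with the member is therefore no separate result.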

How the data were processed

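The authors deposited raw read counts per gene symbol for 6 libraries, made from total RNA as directional, paired-end libraries. The submitters' processing notes name HISAT2 2.0.4 and the build GRCm38, while the counting program, the annotation and the use of strand are not given in the sources used here. The study's methods name DESeq2, and the thresholds of an unadjusted p under 0.05 and a 1.5-fold change were taken from it.

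From these counts, edgeR 4.0.16 in R 4.3.3 gave TMM factors and the quasi-likelihood test, with genotype as the only factor, over the 14611 genes that passed filterByExpr, with Benjamini-Hochberg adjustment over all of them. Log2 CPM used a prior count of 2. A signal of 3 counts, or 0.168 to 0.269 CPM before the TMM adjustment, was the detection limit. It reflects counting error alone, because the libraries carried no stated molecular identifiers and reads are not separate molecules. Mice were separate animals, 3 per group. Gene models, GC content of the longest complete model and codons came from GENCODE vM21 (GRCm38), which gave a GC content for 94.5% of tested genes. Codon windows with the same residues were aligned from translated models. Levels per kb used the median length of complete models.

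The members and lists were chosen with earlier results of these data known. Named genes were the 9 members, Setd2, Vhl and Cdh16, each pathway gene that met the unadjusted rule, up to 3 more per list with the highest mean log2 CPM, and the 3 genes nearest to Pik3ca, Pik3r1 and Akt1 by profile. Pik3c2g, Egfr, Erbb3, Pik3ip1 and Xist were named after their values were seen. Alternatives were RLE and upper-quartile factors, library sizes without mitochondrial genes or without the 20 most abundant genes, other filters, DESeq2 1.42.0, limma 3.58.1 (voom, with and without quality weights), a replicate block, a 2-fold threshold, other transcript lengths and leaving out each library. The offset, natural splines of GC content and length per library over 13811 genes, was chosen after seeing the data. Columns of samples left unused numbered 0. Some genes that the rule names are not reported here.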

Additional observations from a re-analysis of the deposited data

How the results depend on the processing

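Over the 9 members, 91 of 99 log2 fold changes from alternatives that kept all 6 libraries stayed on the same side of 0 and of an adjusted p of 0.05, as did 50 of 54 when 1 library was left out; DESeq2 with 6 libraries gave no adjusted p for them and is counted by its direction alone. The changes of direction came in fits that left out or down-weighted VHL-KO replicate 4, or that used the GC and length offset. With quality weights, with DESeq2 without that library and with the GC and length offset, the log2 fold change turned to -0.14, -0.23 and -0.28 for Pik3ca, to -0.26, -0.38 and -0.16 for Pik3cb and to 0.34, 0.35 and 0.17 for Akt1. DESeq2 without that library gave -0.025 for Pdpk1 and 0.12 for Vhl. Leaving out 1 library at a time gave -0.22 to 0.58 for Pik3ca, -0.37 to 0.47 for Pik3cb, -0.71 to 0.36 for Akt1, -0.019 to 0.78 for Pdpk1 and -0.42 to 0.12 for Vhl. Quality weights brought Pik3r2 (-0.51) and Pik3r3 (0.91) past the threshold, 2 members in all, with 1 higher by the unadjusted rule. Leaving out VHL-KO replicate 4 did not, with an adjusted p of 0.209 for Pik3r2 and 0.281 for Pik3r3 in edgeR. Of the members, 1 was higher by that rule in DESeq2 without VHL-KO replicate 4 and with the offset, and 1 lower (Pik3r2) with RLE factors, without a filter, in DESeq2, with the offset and without VHL-KO replicate 1 or 2 (range 0 to 1).

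Genes with an adjusted p under 0.05 numbered 1 in edgeR, 2 with no filter, 0 with at least 10 counts in every library, 51 in DESeq2, 2979 with quality weights, 1324 in DESeq2 without VHL-KO replicate 4 and 0 to 1 when leaving out each library. By the unadjusted rule 388 genes were higher and 684 lower. Without a filter 634 were higher, with quality weights 2125 higher and 1527 lower, with the offset 937 and 1138, and in DESeq2 without VHL-KO replicate 4 1425 and 1093. DESeq2 called 1133 lower, and leaving out each library gave 179 to 1243 higher and 206 to 1078 lower. Of the pathway genes, quality weights called 18 by adjusted p and 13 higher and 9 lower by the unadjusted rule, DESeq2 without VHL-KO replicate 4 called 11, 7 and 7, the offset called 8 higher and 7 lower, DESeq2 called 4 lower, at least 10 counts left 1 lower, and leaving out each library gave 0 to 7 higher and 1 to 8 lower. Without normalization factors 3 members were higher and 0 lower with no overlap, so the order of Pik3r2 did not hold there. The TMM factors were 0.830 to 0.970 in VHL-KO and 1.03 to 1.16 in VHL-KO;SETD2-KO. Leaving them out therefore raised every gene in VHL-KO;SETD2-KO relative to VHL-KO, and the share over all genes was not counted there. Leaving out each library gave 1 to 2 higher and 1 to 3 lower. Of these fits, the share over all genes was counted only without VHL-KO replicate 4 (20.4% higher, 21.5% lower). The mean log2 ratio of Pik3cb to Pik3ca moved to -0.97 with the longest models and that of Akt2 to Akt1 to -0.21 with coding length.

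With a replicate block, 93 genes were higher and 54 lower, and of the pathway genes 1 and 0. The deviations of same-numbered libraries correlated at 0.16 for replicate 2 and -0.32 for replicate 4 over 14611 genes. With groups of 3 and VHL-KO replicate 4 apart from the rest, these values cannot decide whether same-numbered libraries were paired. With 3 mice per group the standard errors of the members, 0.55 to 0.70 with 6 libraries, limit what could be called, as do the 18 to 66 reads of Pik3cd.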
